A study of Mus musculus with 9 samples.

Results

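Sox family transcription factors known mainly from differentiating tissues, 10 in number, were followed from mouse embryonic stem cells (ESCs) to embryoid bodies: Sox4, Sox5, Sox6, Sox8, Sox9, Sox11, Sox12, Sox15, Sox18 and Sox21. They were chosen by name with earlier results of these data known, so their counts beside those of other genes are a description. Every probe set that the array annotation pairs with a member symbol alone was taken. This gave 36 of the 45037 probe sets and 10 of the 18193 genes measured.

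All 9 samples came from E14 cells, an established line of mouse ESCs, and the labels give each as untreated. The 4 arrays named ES (ES2, ES6, ES8 and ES10) hold total RNA of undifferentiated ESCs, and the 5 arrays named EB (EB1, EB3, EB5, EB7 and EB9) hold total RNA of embryoid bodies, the aggregates in which ESCs differentiate into cells of all germ layers. The labels state neither the age of the embryoid bodies nor their medium, and an embryoid body is a mixture of cell types in unknown shares. The study's methods describe the 4 ESC samples as biological replicates, whereas nothing states that the 5 embryoid body samples came from separate cultures, so their p-values measure the spread between these arrays.

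Sox proteins bind DNA through a high mobility group box related to that of the sex-determining factor Sry, and they are sorted into groups by the sequence of this box. Group C (Sox4, Sox11 and Sox12) consists of activators found in many embryonic progenitors, in neuroblasts and in mesenchyme. Group D (Sox5 and Sox6) lacks an activation domain and works with Sox9 in cartilage. Group E (Sox8 and Sox9) acts in neural crest, cartilage, glia and testis, group F (Sox18) in the endothelium of blood and lymph vessels, group G (Sox15) in muscle precursors and ESCs, and group B2 (Sox21) represses targets of Sox2 in neural progenitors.

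The labelled cell types were checked against marker genes. Of 8 ESC markers, 7 were lower in embryoid bodies, and the summed intensity of the 8 ranged from 20574 to 23062 on the ESC arrays and from 2546 to 4728 on the embryoid body arrays. Of 5 markers of mesoderm and heart, 3 were higher in embryoid bodies, with sums of 161 to 421 against 9869 to 12005. Of 5 markers of fibroblasts and mesenchyme, 4 were higher, with sums of 236 to 734 against 9336 to 10216. The genes called in these lists encode proteins of contracting heart muscle and of connective tissue matrix. Markers of endoderm (2 of 4 higher) and endothelium (2 of 4 higher) moved the same way, with sums of 89.1 to 130 against 393 to 617 and of 65.8 to 80.1 against 136 to 180, while of 3 neuron markers 1 was lower and 2 did not pass the test. Arrays of like label correlated more closely (r of 0.995 to 0.998 between ESC arrays and 0.997 to 0.999 between embryoid body arrays) than arrays of unlike label (0.968 to 0.977). Between 49.1% and 49.9% of probe sets on each array lay under a log2 value of 4, which was taken here as the low end of the scale. Some probe sets above it repeated a value across arrays and both groups. Sox12 1439754_at gave 5.266 on ES2, ES10 and EB1, and the neural crest gene Pax3 gave 6.7482 on ES2, ES8, EB1 and EB9. A mean above log2 4 therefore does not by itself show that a transcript was detected, or that a gene not called was unchanged.

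Of the 10 Sox genes, 6 rose in embryoid bodies, 0 fell and 4 did not pass the test. A gene was represented by its probe set with the highest mean over the 9 arrays, the difference was tested with limma, and a call required an adjusted p under 0.05 over all 45037 probe sets. Over all genes, 15.7% were called higher and 14.7% lower by the same rule. The 6 were Sox11, Sox4 and Sox12 of group C, Sox18 of group F, and Sox5 and Sox6 of group D. The median difference over the 10 members was 0.61 on the log2 scale, against -0.04 over all genes. The latter takes in dim genes, whereas among the members' representative probe sets only that of Sox8 had a mean under log2 4. In RNA from mixed cells, more cells of a type that expresses a gene and more RNA per cell cannot be told apart.

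**Figure D1:**
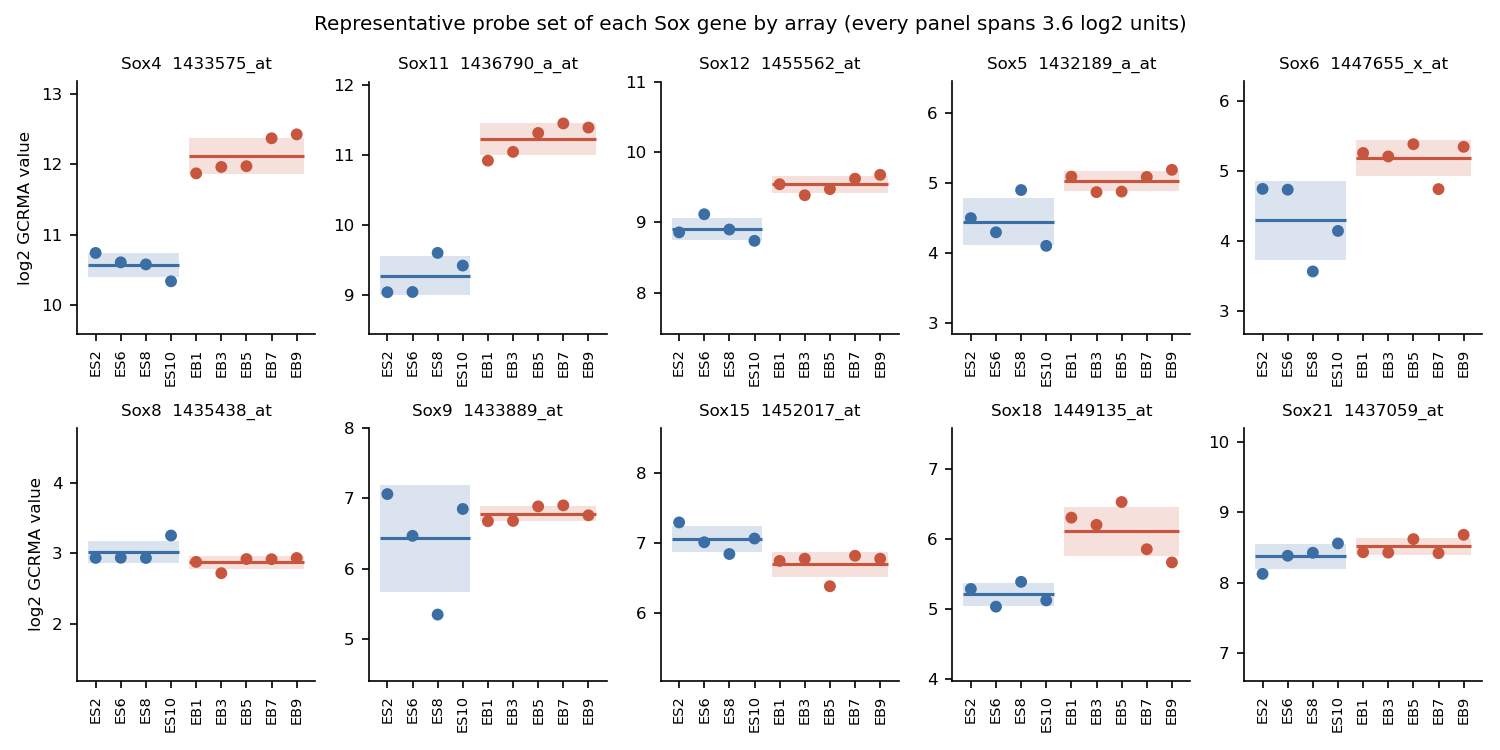
Log2 intensity of the representative probe set of each of the 10 Sox genes on every array (blue, ESCs; red, embryoid bodies); lines are group means and shaded bands span 1 SD either side. Every panel spans the same number of log2 units, and the gap between the groups is wide for Sox4 and Sox11, where the ESC means of 10.56 and 9.28 stand against 12.12 and 11.22, and absent for Sox21.

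Group C held the 2 largest differences, those of Sox11 and Sox4, and all 3 of its genes rose. The sequences just upstream of these 3 genes are shown because the genes moved together, with 250 bases before the annotated transcription start from RefSeq on GRCm38.p6, each written 5′ to 3′ on the gene's own strand, which is the minus strand in every case. Capitals mark CCAAT and its complement ATTGG, the letters of the CCAAT box bound by NF-Y, and in Sox12 also the octamer ATGCAAAT, which POU factors such as Oct4 bind. The Sox4 window is chr13:28953700-28953949, the Sox11 window is chr12:27342719-27342968 and the Sox12 window is chr2:152398047-152398296.
Sox4: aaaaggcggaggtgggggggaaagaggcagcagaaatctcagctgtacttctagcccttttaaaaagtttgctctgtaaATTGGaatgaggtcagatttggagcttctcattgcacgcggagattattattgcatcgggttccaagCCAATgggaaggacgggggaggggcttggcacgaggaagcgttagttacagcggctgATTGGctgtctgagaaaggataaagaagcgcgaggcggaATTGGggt
Sox11: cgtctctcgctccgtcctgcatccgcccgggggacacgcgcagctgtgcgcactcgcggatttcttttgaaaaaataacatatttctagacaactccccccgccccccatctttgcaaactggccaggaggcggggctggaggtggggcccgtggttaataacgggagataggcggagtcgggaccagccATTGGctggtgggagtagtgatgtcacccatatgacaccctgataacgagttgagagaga
Sox12: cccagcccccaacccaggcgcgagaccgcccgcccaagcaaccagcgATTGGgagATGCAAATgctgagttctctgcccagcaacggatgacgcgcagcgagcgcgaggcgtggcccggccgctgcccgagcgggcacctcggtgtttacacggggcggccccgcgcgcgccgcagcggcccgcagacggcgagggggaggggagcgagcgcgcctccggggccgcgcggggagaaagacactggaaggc

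The Sox4 window held 4 CCAAT matches, at 171 to 167, 104 to 100, 47 to 43 and 8 to 4 bases before the start. The Sox11 window held 1, at 60 to 56 bases before the start, and the Sox12 window held 1, at 203 to 199. Of 32851 mouse promoter windows of the same length, 33.8% held CCAAT on either strand. The octamer lay in the Sox12 window alone among the members, at 195 to 188 bases before the start, and in 1.6% of all windows. Base composition was unlike in the 3 windows, with 50.8% G and C for Sox4, 58.0% for Sox11 and 74.4% for Sox12, against a median of 52.4% over all windows.

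An entry in the promoter table was found for 8 of the 10 members, with 13 windows in all, 6 of which belonged to alternative starts of Sox6. CCAAT lay in 5 of the 13 windows, those of the 3 group C genes and 2 of Sox6. The Sox binding letters ACAATG or ACAAAG, found in 25.2% of all windows, lay in the Sox5 window and in 5 of the 6 Sox6 windows and in no other member window. GGGCGG, the letters of the GC box bound by Sp1, lay in windows of Sox11, Sox12, Sox6 and Sox8 (32.7% of all windows), and TATAAA lay in 1 Sox6 window (12.4% of all windows). Both strands were searched for each motif and none of the motifs contains another. These matches describe letters in a window and were not tested against expression.

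**Figure D2:**
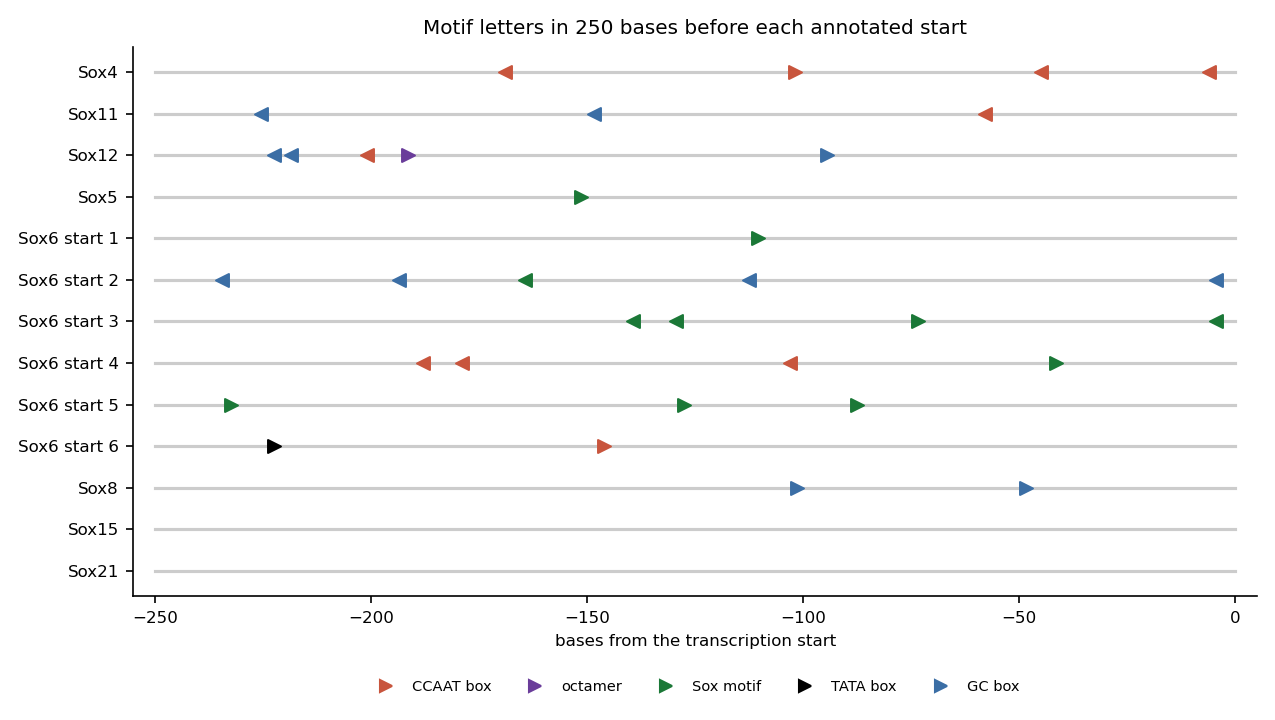
Position of each motif match in the 250 bases before each annotated start for the 8 members with a promoter entry; the x axis is the distance from the start in bases, triangles pointing right are matches on the gene's strand and those pointing left are on the other strand. Sox4 carries 4 CCAAT matches, and the Sox motif appears in Sox5 and in 5 of the 6 Sox6 windows.

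Sox11, an activator of early neurons and of many organ rudiments, showed the largest rise of the 10 on its representative probe set. On 1436790_a_at the ESC arrays ES2, ES6, ES8 and ES10 gave log2 values of 9.05, 9.05, 9.61 and 9.43, and the embryoid body arrays EB1, EB3, EB5, EB7 and EB9 gave 10.92, 11.05, 11.31, 11.45 and 11.39. Every embryoid body array lay above every ESC array, by more than 1 log2 unit. The means were 9.28 ± 0.28 (SD, n = 4) and 11.22 ± 0.23 (SD, n = 5), a difference of 1.94 (95% interval 1.60 to 2.29) or 3.85-fold, with an adjusted p of 1.8e-05.

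All 6 Sox11 probe sets were called higher and in all 6 the groups were apart. The differences ran from 1.94 to 2.97 on the log2 scale, so the representative probe set gave the smallest of the 6. On 1453002_at the ESC arrays gave 7.70, 7.47, 8.06 and 7.84 and the embryoid body arrays 10.47, 10.48, 10.49, 10.95 and 10.98, a difference of 2.90 (2.55 to 3.26) or 7.49-fold (adjusted p = 2.0e-06). The remaining differences were 2.97 on 1429372_at, 2.89 on 1453125_at, 2.65 on 1429051_s_at and 2.34 on 1431225_at.

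Sox4, an activator in progenitors of lymphocytes, heart cushions and neurons, rose on 5 of its 8 probe sets. On the representative probe set 1433575_at the ESC arrays gave 10.74, 10.60, 10.57 and 10.33 and the embryoid body arrays gave 11.87, 11.96, 11.97, 12.37 and 12.43. The groups did not overlap, and EB7 and EB9 were the highest arrays. The means were 10.56 ± 0.17 (SD, n = 4) and 12.12 ± 0.26 (SD, n = 5), a difference of 1.56 (1.25 to 1.87) or 2.95-fold (adjusted p = 3.2e-05).

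The largest Sox4 difference was on 1419155_a_at, where the ESC arrays themselves divided. ES2 and ES6 gave 6.99 and 7.10, ES8 and ES10 gave 5.82 and 5.55, and the embryoid body arrays gave 8.85, 8.71, 8.65, 9.30 and 9.25. The difference was 2.59 (1.82 to 3.36) or 6.01-fold (adjusted p = 4.4e-04). On 1449370_at the 4 ESC arrays lay between 6.22 and 6.24 and the embryoid body arrays gave 7.60, 7.60, 8.05, 8.52 and 8.42, a difference of 1.81. The other called differences were 1.84 on 1419156_at and 1.62 on 1419157_at.

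The 3 other Sox4 probe sets lay at low intensity and differed by little. On 1455867_at the difference was 0.01 (-0.06 to 0.08) at a mean of 4.38. On 1458332_x_at and 1443778_at all 9 arrays lay near 1.57, at the bottom of the scale. The second of these was called lower at a difference of -0.02 (adjusted p = 0.041), the only member probe set called lower (10.6% of all probe sets were). That call was lost when any array other than EB9 was left out, with adjusted p-values of 0.057 to 0.11.

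Sox12, the group C gene with the mildest known loss-of-function effects, rose on 1 of 3 probe sets. On 1455562_at the ESC arrays gave 8.86, 9.12, 8.90 and 8.74 and the embryoid body arrays gave 9.54, 9.39, 9.48, 9.62 and 9.68. The lowest embryoid body array lay above the highest ESC array. The means were 8.90 ± 0.16 (SD, n = 4) and 9.54 ± 0.12 (SD, n = 5), a difference of 0.64 (0.44 to 0.84) or 1.56-fold (adjusted p = 5.4e-04). The differences on 1439754_at (0.09, -0.04 to 0.22) and on 1456882_at (-0.06, -0.14 to 0.02) did not pass the test.

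**Figure D3:**
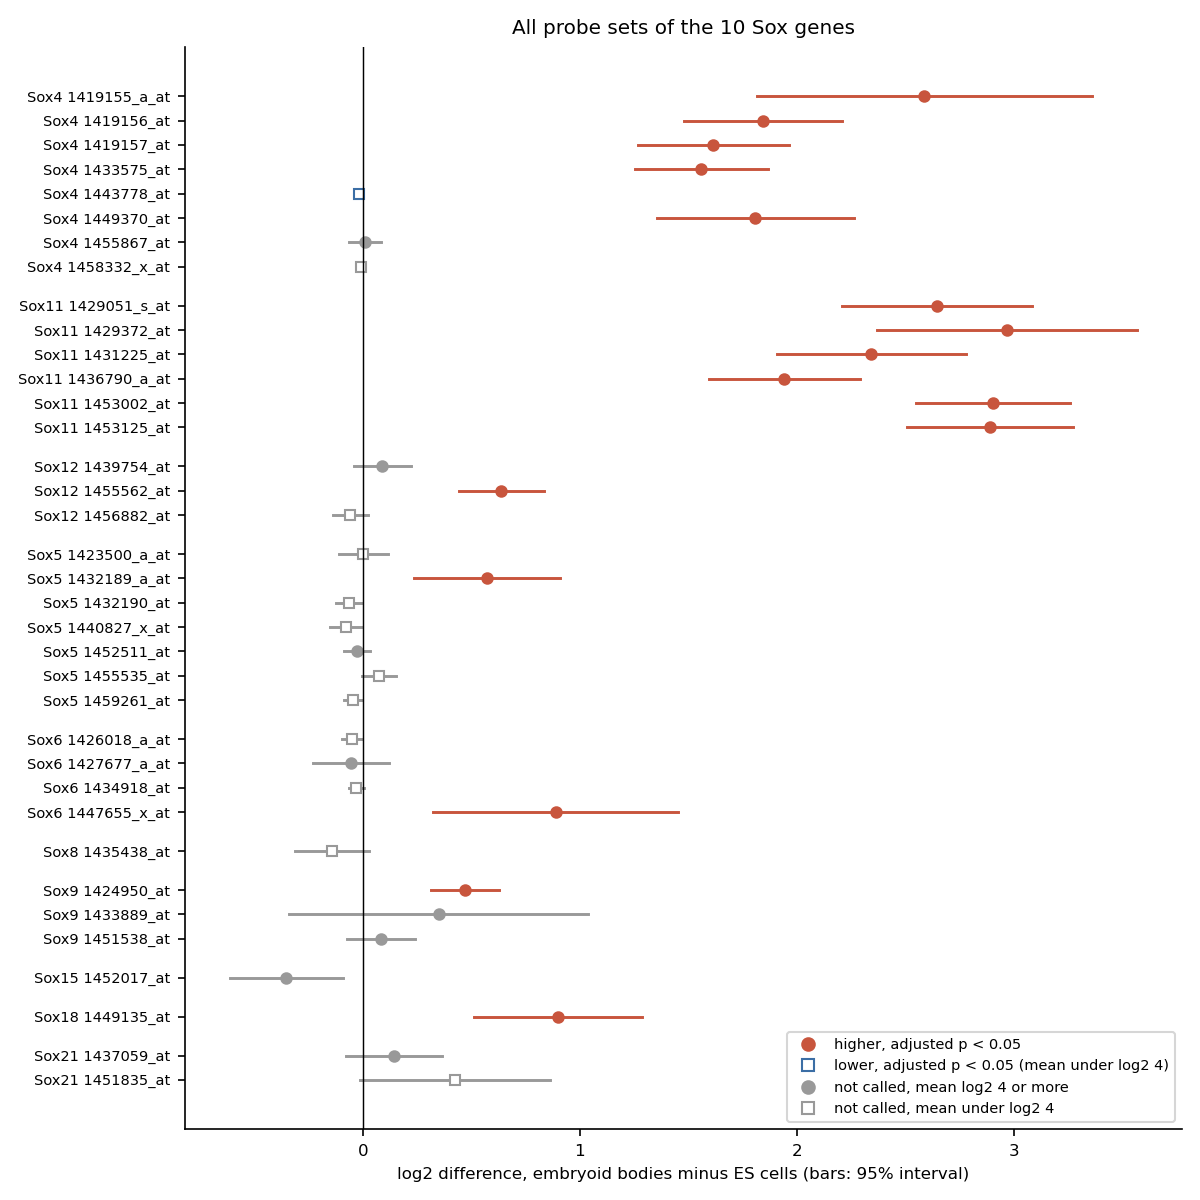
Log2 difference, embryoid bodies minus ESCs, for all 36 probe sets of the 10 Sox genes, with 95% intervals; filled circles have a mean of log2 4 or more over the 9 arrays and open squares lie under it, and red marks an adjusted p under 0.05 with a positive difference. The probe sets of Sox11 all lie between 1.94 and 2.97, whereas those of Sox4, Sox12, Sox5 and Sox6 fall into called probe sets and others close to 0.

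Sox18, which drives arterial and lymphatic endothelial fate, rose on its only probe set. On 1449135_at the ESC arrays gave 5.29, 5.04, 5.39 and 5.13 and the embryoid body arrays gave 6.31, 6.20, 6.53, 5.86 and 5.67. The groups did not overlap, and EB7 and EB9 were the lowest of the embryoid body arrays. The means were 5.21 ± 0.16 (SD, n = 4) and 6.11 ± 0.35 (SD, n = 5), a difference of 0.90 (0.51 to 1.29) or 1.87-fold (adjusted p = 0.0041). In arrays numbered 7 to 10 alone the difference was 0.50 and did not pass the test (adjusted p = 0.080).

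The group D genes Sox5 and Sox6 were each called higher on 1 probe set of low intensity, and in both the groups overlapped. For Sox5, 1432189_a_at gave 4.50, 4.30, 4.90 and 4.10 on the ESC arrays and 5.09, 4.87, 4.88, 5.09 and 5.19 on the embryoid body arrays. ES8 lay within the range of the embryoid bodies. The difference was 0.57 (0.23 to 0.91) or 1.49-fold (adjusted p = 0.023), and on the 6 other Sox5 probe sets the differences of -0.08 to 0.07 did not pass the test. Of the 7 probe sets, 2 had a mean of log2 4 or more. The Sox5 call was lost without ES6 (0.52, adjusted p = 0.066), without ES10 (0.46, 0.055), without EB1 (0.56, 0.058) or without EB7 (0.56, 0.055).

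For Sox6, 1447655_x_at gave 4.74, 4.73, 3.56 and 4.14 on the ESC arrays and 5.25, 5.20, 5.38, 4.74 and 5.34 on the embryoid body arrays. EB7 lay at the level of ES2 and ES6. The difference was 0.89 (0.32 to 1.45) or 1.85-fold (adjusted p = 0.032), and on the 3 other Sox6 probe sets the differences of -0.06 to -0.03 did not pass the test. A name ending in _x_at marks a probe set some of whose probes can bind other transcripts. The Sox6 call was lost without ES10 (0.84, adjusted p = 0.085), without EB1 (0.87, 0.073), without EB3 (0.88, 0.067) or without EB5 (0.84, 0.072). With plain _at probe sets alone, Sox5 and Sox6 each gave -0.03 and neither was called.

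The group E genes did not pass the test on their representative probe sets. Sox9, the master regulator of cartilage, gave 7.06, 6.47, 5.34 and 6.85 on the ESC arrays and 6.67, 6.68, 6.89, 6.90 and 6.76 on the embryoid body arrays on 1433889_at. The ESC arrays spread over more than 1 log2 unit, with ES8 lowest and ES2 highest of all 9 arrays. The difference was 0.35 (-0.34 to 1.04; adjusted p = 0.35). A less bright Sox9 probe set, 1424950_at, lay between 5.41 and 5.67 on the ESC arrays and between 5.90 and 6.13 on the embryoid body arrays, and was called higher with the groups apart (0.47, 0.32 to 0.63, 1.39-fold, adjusted p = 8.6e-04). On the third, 1451538_at, the difference was 0.08 (-0.07 to 0.24). Its values lay at 5.37 to 5.39 on the ESC arrays, at 5.35 to 5.38 on EB1, EB3 and EB5, and at 5.61 on EB7 and EB9. Of the 3 Sox9 probe sets, 1 was thus called, and a probe set as flat as the third says little about Sox9.

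Sox8, which acts with Sox9 in testis and glia, lay under log2 4 on every array. Its probe set 1435438_at gave 2.94, 2.94, 2.94 and 3.26 on the ESC arrays and 2.88, 2.72, 2.92, 2.92 and 2.94 on the embryoid body arrays, a difference of -0.14 (-0.31 to 0.03; adjusted p = 0.15).

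Sox15, the group G factor that can pair with Oct4 in ESCs, missed the threshold. On 1452017_at the ESC arrays gave 7.29, 7.01, 6.84 and 7.06 and the embryoid body arrays gave 6.74, 6.78, 6.38, 6.82 and 6.78. The highest embryoid body array lay just under the lowest ESC array. The means were 7.05 ± 0.19 (SD, n = 4) and 6.70 ± 0.18 (SD, n = 5), a difference of -0.35 (-0.61 to -0.09; adjusted p = 0.059). Without ES8 the difference was -0.42 (adjusted p = 0.037) and without EB9 it was -0.37 (adjusted p = 0.049), both past the threshold. In the fit without EB9, 4819 genes were called lower against 2666 with all arrays.

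Sox21, the group B2 repressor, did not pass the test on either probe set. On 1437059_at the ESC arrays gave 8.12, 8.38, 8.42 and 8.56 and the embryoid body arrays gave 8.43, 8.43, 8.62, 8.42 and 8.68. The groups overlapped, with ES2 and ES6 below and EB5 and EB9 above the shared range. The difference was 0.14 (-0.08 to 0.36; adjusted p = 0.24), so these data allow a rise of at most 0.36 on this probe set within the interval. On 1451835_at, under log2 4 on average, EB7 alone reached 4.03 and the difference was 0.43 (-0.01 to 0.86; adjusted p = 0.11).

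Over the 36 member probe sets, 16 were called higher (10.5% of all probe sets were), 1 was called lower and 19 were not called. Of the 24 with a mean of log2 4 or more, 16 were called higher and 0 lower, against 20.2% and 19.0% of all probe sets of that intensity. Of the 12 under log2 4, 1 was called, against 2.69% of all such probe sets, so few calls among dim probe sets were a feature of the whole array. On 14 probe sets every embryoid body array lay above every ESC array, which held for 10.4% of all probe sets, and on 3 every embryoid body array lay below, which held for 15.8%.

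The embryoid body arrays were not alike for these genes. EB7 and EB9 both lay above EB1, EB3 and EB5 on 16 of the 36 probe sets (15.3% of all probe sets), which included all 6 of Sox11 and the 5 Sox4 probe sets called higher. The reverse held for 1 of the 36, the probe set of Sox18 (6.59% of all probe sets). This division of the arrays was chosen after their values were seen.

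**Figure D4:**
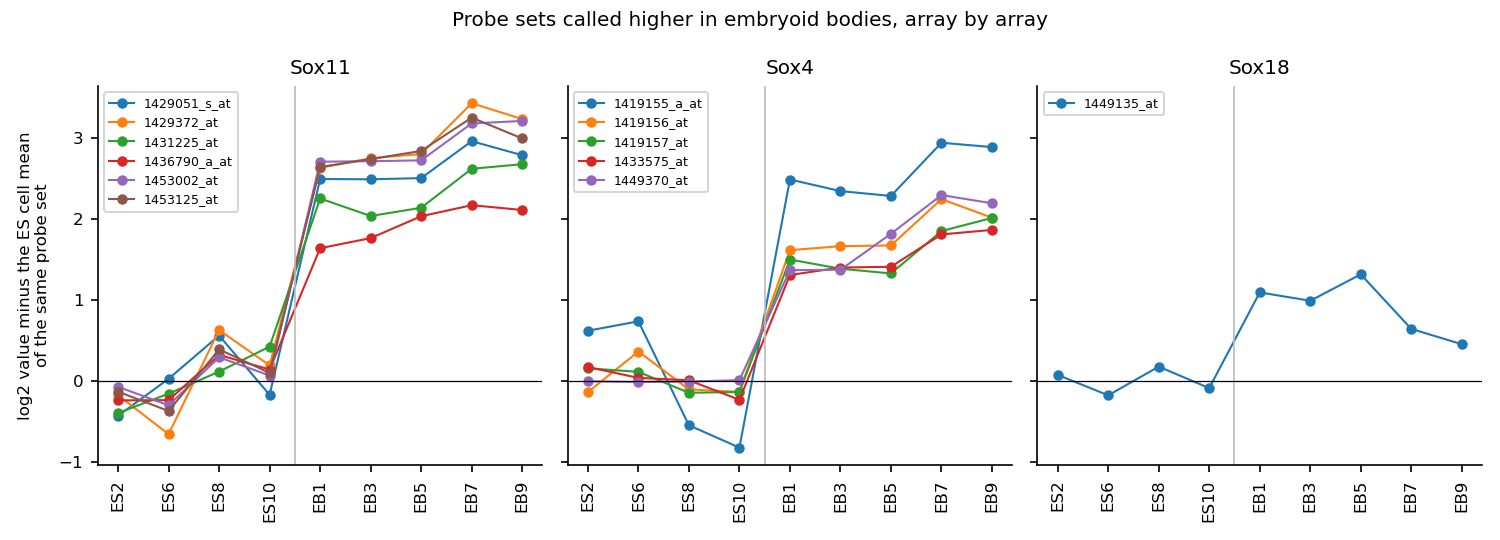
Log2 value minus the ESC mean of the same probe set, array by array, for the probe sets of Sox11, Sox4 and Sox18 that were called higher. The grey line parts ESC arrays from embryoid body arrays. Arrays within a group stand in order of their number, and the labels do not say that the numbers mark batches or times. EB7 and EB9 are the highest arrays for all 11 probe sets of Sox11 and Sox4 and the lowest embryoid body arrays for Sox18.

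Whether the difference itself was unlike in arrays numbered 1 to 6 and 7 to 10 was tested with an interaction term, although the labels do not say that the numbers mark batches. It passed for 1.16% of all probe sets and for 3 of the 36, all of them Sox4. On 1433575_at the difference was 1.27 in arrays 1 to 6 and 1.95 in arrays 7 to 10, larger by 0.68 (adjusted p = 0.048). On 1419157_at it was larger by 0.80 (adjusted p = 0.034) and on 1419155_a_at by 1.90 (adjusted p = 0.0050), in the latter from 1.69 to 3.59. No Sox11 probe set passed, and on 1436790_a_at the differences were 2.05 and 1.91. For Sox18 the differences were 1.18 and 0.50, lower by 0.68 in arrays 7 to 10, which did not pass (adjusted p = 0.24).

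**Figure D5:**
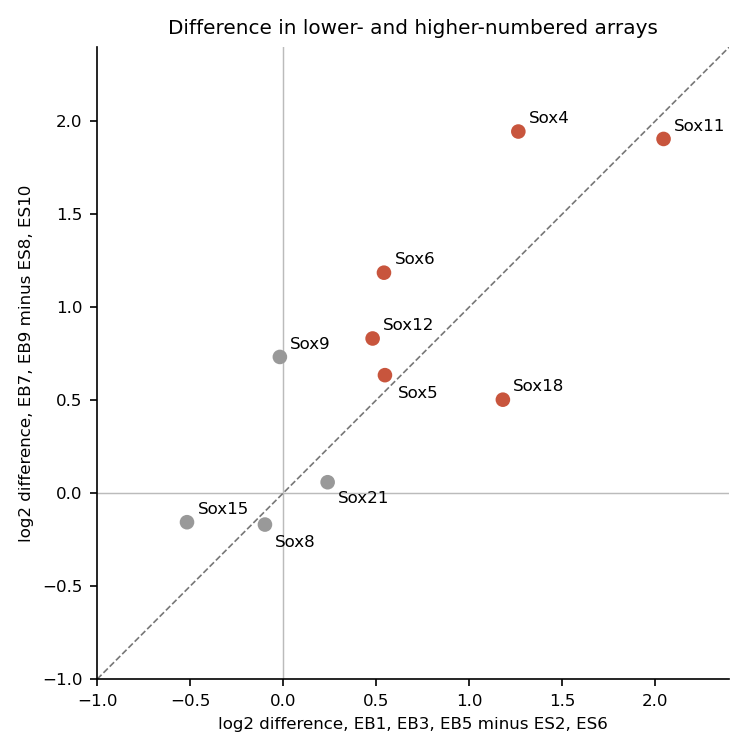
Log2 difference between embryoid bodies and ESCs on each member's representative probe set within arrays 1 to 6 (x axis) and within arrays 7 to 10 (y axis); red points were called higher with all 9 arrays, grey points were not called, and the dashed line marks equal differences. Sox4 lies at 1.27 and 1.95, above the line, and Sox18 at 1.18 and 0.50, below it.

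Marker genes moved with this division of the arrays, and their part in the Sox values was not tested. The summed intensity of the 3 chondrocyte markers was 466 on EB1, 499 on EB3 and 547 on EB5 and 856 on EB7 and 972 on EB9. Of the 3 markers, Col2a1 was called and Acan and Matn1 stayed under log2 4 on all arrays. The summed ESC markers went the other way, with 4270, 4728 and 4085 on EB1, EB3 and EB5 and 3026 and 2546 on EB7 and EB9. The endothelium sum, set beside Sox18, was 156, 179 and 180 on EB1, EB3 and EB5 and 136 and 150 on EB7 and EB9. Other lists went the same way as Sox18, among them the endoderm sum, with 560, 617 and 612 on EB1, EB3 and EB5 and 422 and 393 on EB7 and EB9, and the embryonic globin Hbb-bh1, with log2 values of 12.49, 12.33 and 12.50 against 10.26 and 10.42. The neuron sum did not divide the arrays, at 560 to 711 in all embryoid bodies against 2616 to 3145 in ESCs, and was made up mostly of Stmn2. Tubb3, a neuronal tubulin in that list, stood at 8.01 on EB7 and 7.67 on EB9 and at 6.48 to 6.71 on the other embryoid body arrays.

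Among ESC arrays, the sum of the 5 fibroblast and mesenchyme markers was 263 on ES2 and 236 on ES6 and 734 on ES8 and 710 on ES10. ES8 and ES10 were also the arrays on which Sox4 1419155_a_at was low and on which the representative Sox11 probe set was high (9.61 and 9.43 against 9.05 and 9.05). The part of such cells in these values was not tested.

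Of the 10 other Sox genes on the array, 2 were called higher, 1 lower and 7 were not called, with a median difference of 0.01. Sox2, a core factor of pluripotency, gave 11.72, 11.98, 11.77 and 11.62 on the ESC arrays and 10.36, 10.49, 10.42, 10.47 and 10.21 on the embryoid body arrays. It fell by 1.38 on the log2 scale, with the groups apart (adjusted p = 3.1e-06). Sox1, an early neural factor, rose by 0.93 on 1438729_at (adjusted p = 0.018), from 5.98, 5.38, 5.94 and 6.02 to 6.45, 6.29, 6.64, 7.33 and 7.07. The Sox1 call was lost without EB7 and EB9 (0.63, adjusted p = 0.052) and in arrays 1 to 6 alone (0.78, adjusted p = 0.069). Sox13, the remaining group D gene, rose by 0.29 (adjusted p = 0.020), a call that was lost without ES2 or without ES8 (0.27 in each, adjusted p = 0.055 and 0.054). With quantile normalization the Sox13 difference was 0.16 and was not called (adjusted p = 0.13). Sox3 (-0.08), Sox10 (0.04) and Sry (-0.19) did not pass, and Sox14 (-0.03) and Sox30 (-0.08) lay under log2 4 on all arrays. Sox30 was called lower, by 0.09, without EB9 (adjusted p = 0.043), a fit in which 4819 genes were called lower against 2666 with all arrays.

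The group F relatives of Sox18 gave mixed values. Sox7 differed by 0.48 (0.11 to 0.85; adjusted p = 0.069), and without ES8 it was called at 0.59 (adjusted p = 0.036). The representative Sox17 probe set differed by 0.39 (adjusted p = 0.083), whereas a second, 1429177_x_at, rose from 2.12, 2.29, 2.10 and 2.30 to 4.89, 5.10, 4.60, 4.62 and 4.61, by 2.57 on the log2 scale (adjusted p = 6.1e-07). Sox17 is also a factor of definitive endoderm.

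Genes of the tissues in which these Sox factors act were read from the same fit. Of 12 cartilage matrix genes, 4 were higher, 1 lower and 7 not called. Col9a1 (4.20 on the log2 scale, adjusted p = 2.4e-04), Col11a1 (2.98, adjusted p = 0.035), Hapln1 (2.51, adjusted p = 1.0e-05) and Col2a1 (2.14, adjusted p = 1.7e-04) rose, which encode cartilage collagens and a link protein, while Comp fell by 0.47. On Col11a1 the ESC arrays divided, with 4.69 and 4.35 on ES2 and ES6 and 8.22 and 7.94 on ES8 and ES10. Its difference was 4.32 in arrays 1 to 6 and 1.87 in arrays 7 to 10, which passed the interaction test (adjusted p = 0.0057). The Col11a1 call was lost without ES2, ES6, EB1, EB3, EB5 or EB7, with differences of 2.33 to 3.13 and adjusted p-values of 0.054 to 0.089. The list's median difference was -0.04, as over all genes, but Col9a2, Col9a3, Col11a2, Acan, Matn1 and Cnmd had means under log2 4. The median fell between Matn1 (-0.04) and Cnmd (-0.03), both dim, and so says little of the brighter genes.

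Of 10 neural crest genes, 4 were higher, 2 lower and 4 not called, with a median of 0.01. Twist1 (3.18), Snai2 (3.13) and Ets1 (2.77) rose on the log2 scale and are also expressed in mesenchyme outside the crest. Erbb3 fell by 1.39 and Foxd3, which ESCs also use, fell by 1.34. Foxd3 lay under log2 4 on all arrays, and its call was lost in arrays 1 to 6 alone (-1.02, adjusted p = 0.081). Of 11 neural progenitor and neuron genes, 0 were higher, 3 lower and 8 not called (median -0.04), with Stmn2 falling by 2.65, Neurod1 by 1.70 and Pax6 by 1.09. Among those not called, Neurog1, Neurog2, Map2 and Elavl4 lay under log2 4 on all arrays. Tubb3, also not called, was called higher in arrays 7 to 10 alone (1.01, adjusted p = 0.014). Nes, an intermediate filament gene of progenitors, was not called (-0.07) but was called higher when its probe sets were averaged (0.29, adjusted p = 0.0082). The Pax6 call was lost without ES8, EB1, EB3, EB5 or EB7, with differences of -1.14 to -0.99 and adjusted p-values of 0.058 to 0.084.

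Of 13 genes of blood and lymph vessel endothelium, 6 were higher, 0 lower and 7 not called (median 0.25). Kdr, a receptor for vascular endothelial growth factor, rose by 2.01 and the receptor Flt1 by 0.66. The junction genes Cdh5 and Cldn5 rose by 1.35 and 0.93, Cdh5 at a mean of 3.33 over the 9 arrays, under log2 4. The lymphatic genes Prox1 (-0.09), Flt4 (0.10) and Lyve1 (-0.07) were among the 7 not called. Prox1 and Lyve1 lay under log2 4 on all arrays. Lyve1 was called lower, by 0.08, without EB9, a fit in which 4819 genes were called lower against 2666 with all arrays.

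The other lists were shorter. Of 6 globin and erythroid genes 3 were higher (median 3.03), the embryonic globins Hbb-y (8.26), Hba-x (7.41) and Hbb-bh1 (6.08). Of 8 genes of skeletal myoblasts, cells in which Sox15 acts, 1 was higher, Foxk1 (0.66), and 7 were not called (median -0.03). Of 7 oligodendrocyte and glia genes 1 was higher, Mbp (0.58, with a list median of -0.04). The Mbp call was lost when its probe sets were averaged (0.03, adjusted p = 0.36). Olig1, Olig2, Nkx2-2 and S100b lay under log2 4 on all arrays. Fabp7, a fatty acid binding protein of radial glia in that list, was not called (2.29, adjusted p = 0.077) although its groups were apart, at 3.10 to 4.18 on the ESC arrays, 4.38 to 4.98 on EB1, EB3 and EB5, and 8.07 and 7.62 on EB7 and EB9. It was called with arrays 1 to 6 and 7 to 10 as a block (2.49, adjusted p = 0.0071) and within each set of arrays (1.28, adjusted p = 0.020, and 3.95, adjusted p = 0.0020). Of 5 gonad genes 1 was higher, Gata4 (2.02), and 1 lower, Dmrt1 (-1.84; median -0.06).

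The genes nearest in pattern were sought for the 3 members with the largest differences, over the 9 arrays after each gene was set to 0 at its own ESC mean, with likeness as the root mean square gap in log2 units. Nearest to Sox11 were Wls, a carrier of Wnt proteins (0.133), Selenon, a selenoprotein of the endoplasmic reticulum (0.134), and Fstl1, a secreted glycoprotein (0.140). Nearest to Sox4 were the mitochondrial isocitrate dehydrogenase Idh2 (0.0868), Lrch2 (0.116) and Tmtc4 (0.124). Nearest to Sox18 were Gpx3, a secreted glutathione peroxidase (0.121), Hdac7, a histone deacetylase of endothelium and lymphocytes (0.136), and Gtpbp2 (0.173). These genes were picked for their likeness from 18193, so it is a description with no test.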

How the data were processed

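Total RNA of 9 samples, 4 of ESCs and 5 of embryoid bodies, was labelled with biotin and hybridised to Affymetrix mouse arrays. The deposited values are GCRMA intensities on a linear scale: the authors corrected the background by probe sequence, normalized the arrays and summarised the probes of each probe set. Whether all 9 arrays were normalized together is not given in the sources used here. GCRMA compresses low values, so small differences near the low end of the scale are uncertain. The precision is limited by the number of arrays.

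Values were converted to log2. Of 45101 probe sets, 64 controls were left out. The annotation paired 34945 probe sets with 1 symbol, 932 with several and 9160 with none, and only the first were given a gene name. The difference between embryoid bodies and ESCs was tested in R 4.3.3 with limma 3.58.1 (lmFit, and eBayes with trend and robust), two-sided, with Benjamini-Hochberg adjustment over all 45037 probe sets and a threshold of 0.05. The scripts were tested on simulated data. Intervals are 95% intervals from the same fit.

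The members, the gene lists and the tests were chosen with earlier results of these data known. Named were all members, all other Sox genes, up to 4 called genes of each other list with the largest differences, and the 3 genes nearest in pattern to each of 3 members. Marker genes and a few further list genes were named after their values were seen. Of 3 Schwann cell and melanoblast markers, 2 were on the array and neither was called (sums of 114 to 132 on ESC arrays and 129 to 134 on embryoid body arrays). Alternatives changed the normalization, variance model, array weights, filter, probe set choice, threshold, pseudocount (16) and arrays used. The interaction test and the fit without EB7 and EB9 were added after the data were seen. Promoter windows came from RefSeq on GRCm38.p6.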

Additional observations from a re-analysis of the deposited data

Results flagged for a closer look

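In 72 groups of 4 or 5 arrays (36 member probe sets in 2 conditions), 11 held an array set apart from the others by more than most of the group's range, a gap that chance gives in about 1 in 20 groups. Of the 11, 6 lay in probe sets with a mean under log2 4. Among brighter probe sets, ES6 was at 6.27 on Sox4 1419156_at (other ESC arrays 5.77 to 5.80), ES6 was at 5.12 and EB5 at 5.48 on Sox12 1439754_at (others 5.26 to 5.27 and 5.27 to 5.30), EB7 was at 4.74 on Sox6 1447655_x_at (others 5.20 to 5.38), and EB5 was at 6.38 on Sox15 1452017_at (others 6.74 to 6.82). In the dim probe sets, ES10 was at 3.52 and EB3 at 3.32 on Sox12 1456882_at, ES10 was at 2.98 on Sox5 1440827_x_at and at 2.74 on Sox6 1426018_a_at, and ES10 was at 3.26 and EB3 at 2.72 on Sox8 1435438_at. ES10 was the array set apart in 4 of the 6 dim cases and lay above the other ESC arrays in each. It was also the highest ESC array on dim probe sets of other genes, among them Sox30, Acan, Nkx2-2 and Nr5a1, though not on Myf6. The groups share the same 9 arrays, so the cases are not independent events to set against 1 in 20.

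The difference between embryoid bodies and ESCs was larger in arrays 7 to 10 than in arrays 1 to 6 for 3 Sox4 probe sets by the interaction term, by 1.90 on 1419155_a_at, 0.80 on 1419157_at and 0.68 on 1433575_at.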

How the results depend on the processing

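Across 23 alternatives, Sox4 (1.17 to 1.95) and Sox11 (1.81 to 2.90) were called higher in all 23, Sox12 in 22 and Sox18 in 21, Sox5 in 13 and Sox6 in 12, Sox15 was called lower in 6, and Sox8 (22 alternatives), Sox9 and Sox21 were called in 0. The count of members called higher, 6, became 2 when a fold of at least 2 was also required and 3 in arrays 7 to 10 alone, ranged from 4 to 6 when 1 array was left out, and was 4 without EB7 and EB9. The count of members called lower, 0, became 1 (Sox15) with quantile normalization, with array weights, with a filter at a mean of log2 4 or with the mean of a gene's probe sets, and ranged from 0 to 1 when 1 array was left out. Over all genes, a fold of at least 2 left 1069 of 2863 higher and 661 of 2666 lower, array weights gave 5109 lower, and leaving out 1 array gave 2565 to 2962 higher and 2345 to 4819 lower, the last without EB9. Signs turned with plain _at probe sets for Sox5 (-0.027), Sox6 (-0.030), Msx1 (-0.015), Tnnt2 (-0.038) and Afp (-0.14), since another probe set then stands for the gene, and for Nes when its probe sets were averaged (0.29, called higher). No paired analysis was made, because the labels do not say which ESC and embryoid body arrays, if any, belong together. The cause of the other changes was not tested. Sox8 and most probe sets of Sox5 lay under log2 4, where 2.69% of all probe sets were called. Of the 4 Sox6 probe sets, 2 had a mean of log2 4 or more. The representative probe sets had means of 4.77 for Sox5 and 4.79 for Sox6.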
